A study of Brassica napus with 12 samples.

Results

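The 2 genes described here are BnaA05g26900D and BnaC05g40970D, the copies of FATTY ACID DESATURASE 2 (FAD2) on chromosomes A5 and C5 of rapeseed (Brassica napus). They are defined by their IDs, not by a threshold on measured values, among 50338 genes listed in at least 1 of the 12 libraries, and both were listed in all 12. Immature seeds were collected 24 days after pollination from the inbred lines A28, R8Q10, SW and YH25005, and each line gave 3 libraries. The plants stood in an experimental field and their inflorescences were bagged for selfing. The series concerns high and low linolenic acid, but its labels assign the trait to no line, so all pairs of lines were treated alike. The labels call the tissue seeds and the extraction text speaks of embryos. Whether the 3 libraries of a line came from separate plants is not stated, so p-values measure the spread between these libraries, which may be technical.

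FAD2 is a membrane enzyme of the endoplasmic reticulum that places a second double bond in oleate and so makes linoleate, while the fatty acid is bound to phosphatidylcholine. Linoleate is in turn the substrate of FAD3, which makes linolenic acid, so FAD2 stands directly upstream of the trait of this series. Rapeseed carries the A and the C subgenome of its diploid parents, and most of its genes exist as an A and a C homoeologue. Loss of FAD2 function in the seed is the classical route to high-oleic oil.

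The files give IDs and no gene names, and the names used here come with the choice of the IDs. The RefSeq gene table of the Da-Ae assembly names neither ID, and no sequence of either gene was used here. That table gives the name FAD2-4 to a gene on chromosome C1 with no ID of the files attached, so further FAD2 copies were not analysed here. Of 25 names of seed oil genes (other desaturases, elongases, oil assembly, oil bodies and regulators) 10 occur in the table and 0 could be joined to an ID. Of 12 marker names for embryo, seed coat, endosperm and green tissue 5 occur and 0 could be joined, so the labelled tissue was not checked against markers. Library totals ran from 30150457 to 40762254 counts.

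Both FAD2 copies were among the most abundant transcripts of every library. Ranked by FPKM (the authors' read level per gene length and library size), BnaA05g26900D lay between place 91 and place 237 and BnaC05g40970D between place 71 and place 544. At most 0.504% of the listed genes stood above the A5 copy and at most 1.15% above the C5 copy. Together the copies took 0.0911% to 0.195% of the counts of a library. In bulk seeds, fewer cells of a type and less RNA per cell cannot be told apart.

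For the A5 copy the values of most lines overlapped. In CPM (counts relative to library size) scaled with TMM factors, which correct for differences in library composition, BnaA05g26900D stood at 621, 429 and 763 in the libraries of A28. It stood at 504, 504 and 739 in R8Q10, where replicate 3 was the high one. In SW the values were 597, 615 and 485, and in YH25005 they were 639.8, 680.5 and 800.5. YH25005 had the highest mean at 707 ± 83.5 CPM, followed by A28 at 604 ± 168, R8Q10 at 582 ± 135 and SW at 565 ± 70.7 (SD, n = 3). The ranges of all neighbours in this order overlapped. Only YH25005 and SW had separate ranges. In CPM without TMM factors their ranges overlapped too, at 498.7 to 622.1 and 493.3 to 639.7. Between these lines 26.7% of all genes were called with edgeR, and the share of genes with separate ranges was not measured.

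The C5 copy varied more, and most of that lay between replicates of 1 line. BnaC05g40970D stood at 497, 379 and 778 CPM in A28. In R8Q10 it stood at 561, 555 and 1132 CPM, so that replicate 3 held the highest value of either copy in the series. SW gave 606, 533 and 421 CPM and YH25005 gave 736, 688 and 815 CPM. R8Q10 and YH25005 had close means of 749 ± 331 and 747 ± 64.0 CPM, and A28 at 551 ± 205 and SW at 519.9 ± 92.9 followed (SD, n = 3). As for the A5 copy, the ranges of neighbours in this order overlapped while those of YH25005 and SW did not. How many of all genes have separate ranges in this pair was not measured. Without TMM factors the ranges of YH25005 and SW overlapped here as well, at 574.1 to 629.1 and 428.9 to 649.2 CPM. The plot of levels by library shows both copies on both scales.

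**Figure D1:**
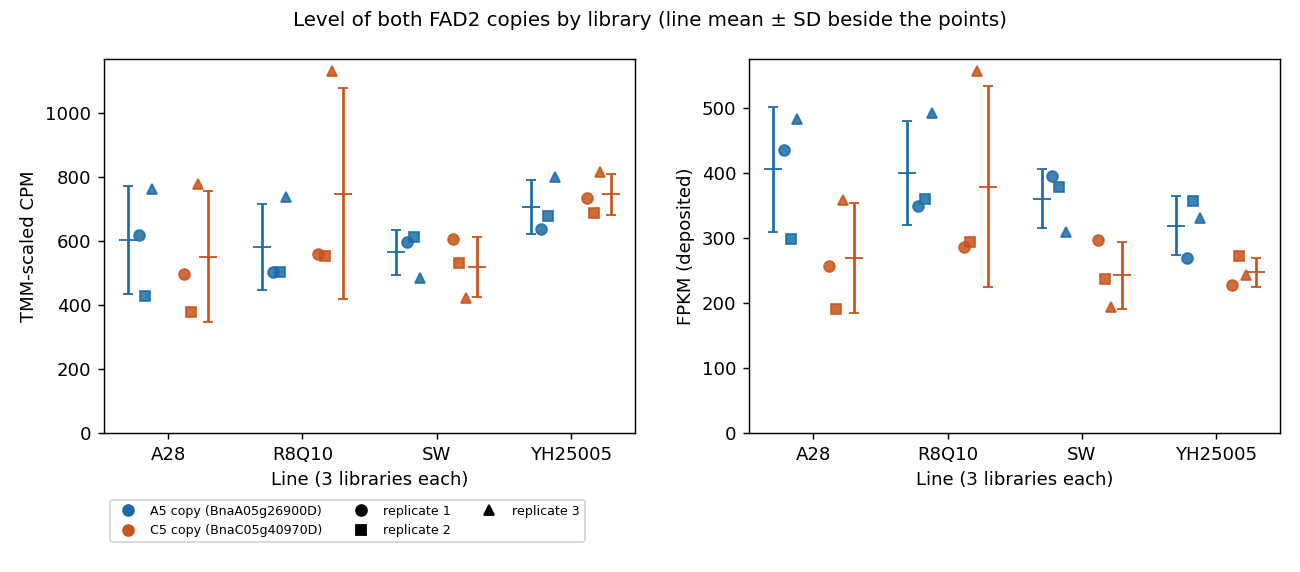
Level of the A5 copy (blue) and the C5 copy (orange) in each of the 12 libraries, as TMM-scaled CPM on the left axis and as the deposited FPKM on the right, with the line mean ± SD (n = 3) beside the points. The C5 copy of R8Q10 replicate 3 reached 1132 CPM, YH25005 was highest for the A5 copy in scaled CPM, and by FPKM it was lowest (319 ± 45.6).

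No difference in level between lines passed the test for either copy. Across the 4 lines the edgeR quasi-likelihood F test gave an adjusted p of 0.764 for BnaA05g26900D and 0.462 for BnaC05g40970D, where 46.2% of the 43708 genes tested were called at the 0.05 threshold. In the 6 pairs of lines 0 of the 12 comparisons of a copy were called, and 0 reached an unadjusted p under 0.05 with edgeR or with DESeq2. Of all genes, 27.2% were called between A28 and YH25005, 26.7% between SW and YH25005, 23.6% between R8Q10 and SW, 23.4% between R8Q10 and YH25005, 21.7% between A28 and R8Q10 and 15.4% between A28 and SW.

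The widest gap for the A5 copy was between SW and YH25005, at a log2 fold change of -0.32 ± 0.31 (SE; 95% interval -1.0 to 0.36; edgeR adjusted p = 0.482). For the C5 copy R8Q10 exceeded SW by 0.53 ± 0.38 (interval -0.31 to 1.36, edgeR adjusted p = 0.366) and SW lay below YH25005 at -0.52 ± 0.38 (interval -1.36 to 0.31, edgeR adjusted p = 0.344). Over the 6 pairs the intervals of the A5 copy ran from 0.499-fold to 1.71-fold and those of the C5 copy from 0.39-fold to 2.57-fold. Differences within these intervals are therefore not excluded with 3 libraries per line, and the p-values do not show equal levels.

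The gaps between lines depended on single libraries, in both directions. Without R8Q10 replicate 3, R8Q10 minus SW was 0.10 in place of 0.53 and A28 minus R8Q10 was -0.07 in place of -0.44, on the log2 scale. R8Q10 minus YH25005, at 0.0052 with all libraries, was -0.37 without it. Without A28 replicate 3 the gaps of A28 in the C5 copy widened, from -0.44 to -0.80 against R8Q10 (edgeR adjusted p = 0.199) and from -0.44 to -0.76 against YH25005 (adjusted p = 0.19), and without A28 replicate 2 they were -0.27 and -0.23. Without SW replicate 3, SW minus YH25005 was -0.18 in place of -0.32 for the A5 copy and -0.34 in place of -0.52 for the C5 copy.

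Libraries of A28 and R8Q10 with the same replicate number tended to deviate from their line means together, so these lines were also compared number by number. The match was weak for replicate 1 of A28 (r = 0.138 over genes), which correlated more with R8Q10 replicate 3 (r = 0.277). The C5 copy was lower in A28 within all 3 numbers, by log2 differences of -0.18, -0.55 and -0.54, while the A5 copy differed by 0.30, -0.23 and 0.05. The exact sign-flip permutation test gave p = 0.25 for the C5 copy, the smallest that 3 pairs allow. With these lines alone and the number as a block, A28 minus R8Q10 in the C5 copy was -0.47 (edgeR adjusted p = 0.26), and 20.9% of all genes were called.

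**Figure D2:**
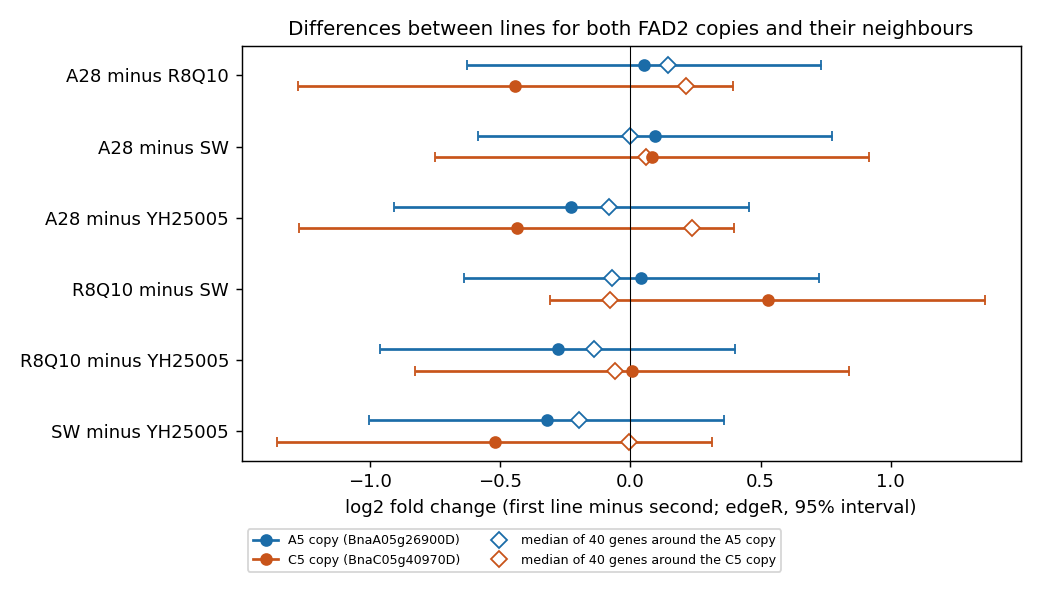
Log2 fold change of the A5 copy (filled blue) and the C5 copy (filled orange) in each of the 6 pairs of lines, with 95% intervals from edgeR, and open diamonds for the median of the 40 genes around each copy. All 12 intervals include 0, and the neighbour medians lie between -0.20 and 0.24.

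The place of YH25005 in the order depended on how libraries were scaled. Its TMM factors were 0.7795, 0.9141 and 0.7662, against 1.002 to 1.144 in the other lines, and its 50 most abundant genes took 17.6% to 25.0% of the counts, against 5.02% to 9.13% elsewhere. The part of these genes in the FAD2 values was not tested. With library totals alone the median of all genes shifted by 0.41 for A28 minus YH25005, by 0.41 for R8Q10 minus YH25005 and by 0.33 for SW minus YH25005. On that scale the A5 copy gave 0.18, 0.13 and 0.01 for these pairs, in place of -0.23, -0.28 and -0.32 with TMM. The C5 copy gave -0.03, 0.41 and -0.18, in place of -0.44, 0.0052 and -0.52. None of these differences passed the test on either scale.

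The sum of both copies does not depend on which of them a shared read was given to, provided that each such read was counted a single time, which the sources do not state. The summed level was highest in YH25005 with 1454 ± 140.3 CPM, then came R8Q10 with 1331 ± 466, A28 with 1155 ± 368 and SW with 1085 ± 158 (TMM-scaled, SD, n = 3). The single libraries ran from 808 to 1541 CPM in A28, from 1059 to 1870 in R8Q10, from 906 to 1203 in SW and from 1369 to 1616 in YH25005. Only SW and YH25005 did not overlap, and without TMM factors they did, at 922.2 to 1289 and 1073 to 1251 CPM. For this pair too, the share of genes with separate ranges was not measured. The lines did not differ beyond the spread between libraries (exact permutation test over all partitions of the libraries into 4 groups of 3, one-sided for larger differences, p = 0.473, adjusted over 2 measures 0.473). Summed FPKM reversed the place of YH25005, with 567 ± 66.5 there against 780.4 ± 235 in R8Q10, 676 ± 178 in A28 and 605 ± 95.1 in SW.

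Per length, the A5 copy was the more abundant of both in 11 of 12 libraries. Its FPKM ran from 269 to 493 and that of the C5 copy from 191 to 558, and the ratio of A5 to C5 FPKM was 1.54 ± 0.174 in A28, 1.51 ± 0.148 in SW, 1.29 ± 0.0959 in YH25005 and 1.11 ± 0.196 in R8Q10 (SD, n = 3). The exception was R8Q10 replicate 3, with a ratio of 0.884. The geometric mean over the libraries was 1.34-fold, a log2 ratio of 0.42 ± 0.26 (SD, n = 12), and the two-sided exact sign-flip permutation test gave p = 0.000977. Libraries of 1 line are not independent lines. All 4 line means were above 1, which gives an exact permutation p of 0.125, the smallest that 4 lines allow.

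Raw counts showed no such lead. By counts the A5 copy was higher in 4 libraries and lower in 8, with a ratio of 0.983 (exact sign-flip permutation test, n = 12, p = 0.752). The ratio of count to FPKM implies a length of the A5 copy of 0.721 to 0.752 of that of the C5 copy. This value varied between libraries, which a fixed length for each gene would not give. The lead of the A5 copy thus rests on how the authors' FPKM were made from counts, a step not given in the sources used here. How reads matching both copies were counted is not stated either. This uncertainty attaches to the single levels, their sum, the share and the correlation of the copies within lines.

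The balance between the copies, unlike the levels, gave a call across lines, though not a firm one. The A5 copy took 52.7% ± 3.03 of the FAD2 counts in A28, 52.2% ± 2.25 in SW, 48.6% ± 1.82 in YH25005 and 44.8% ± 4.6 in R8Q10 (SD, n = 3). In single libraries the share was 55.5%, 53.1% and 49.5% in A28, and 49.6%, 53.6% and 53.5% in SW. It was 46.5%, 49.7% and 49.6% in YH25005, and 47.3%, 47.6% and 39.5% in R8Q10. All 3 R8Q10 libraries lay below all libraries of A28 and SW, while YH25005 overlapped with each of the other lines. Of single genes 46.2% were called across lines with edgeR, and the shares of other homoeologue pairs were not measured. How common such gaps are is thus not known. Counting error was small beside these gaps, since the exact 95% binomial interval for R8Q10 replicate 3 ran from 39.1% to 39.9%, and that for A28 replicate 1 from 55.1% to 56.0%. Such intervals cover counting error only.

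The same exact permutation test as for the sum gave p = 0.0232 for this share (n = 3 per line), adjusted over 2 measures to 0.0464. The call rested on single libraries. The exact permutation p was 0.104 without R8Q10 replicate 3, 0.0621 without A28 replicate 2, 0.0583 without SW replicate 3, 0.058 without SW replicate 2 and 0.0506 without A28 replicate 1. When libraries were permuted only within their replicate number, the exact permutation p was 0.059, so the call was also lost with the number as a block. The share was higher in A28 than in R8Q10 within all 3 numbers, by 8.2, 5.49 and 10.02 points (exact sign-flip permutation p = 0.25, the smallest that 3 pairs allow). Taken from FPKM, the share was 60.4% ± 2.77 in A28, 60.0% ± 2.45 in SW, 56.2% ± 1.87 in YH25005 and 52.3% ± 4.68 in R8Q10, with p = 0.0196 in the same exact permutation test.

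The A subgenome as a whole also gave a smaller part of the counts in R8Q10. Among counts of A and C genes it took 46.6% ± 0.453 there, against 50.1% ± 0.235 in YH25005, 49.8% ± 0.132 in SW and 48.9% ± 0.462 in A28 (SD, n = 3). After this share of the same library was taken off, the FAD2 share stood 3.83 points above it in A28 and 2.44 above it in SW, and at -1.57 in YH25005 and -1.77 in R8Q10, and the exact permutation p was 0.124. R8Q10 replicate 3 did not stand apart in the subgenome share, at 46.7% between 46.1% and 47.0% in the other replicates, while its FAD2 share differed from that by -7.18 points. On chromosomes A5 and C5 alone, the A share was lowest in YH25005 with 36.5% ± 1.3, then came SW with 39.5% ± 0.509, R8Q10 with 41.2% ± 0.374 and A28 with 42.3% ± 0.41. FAD2 exceeded the share of its chromosome in 11 of 12 libraries, the exception being R8Q10 replicate 3 at 39.5% against 41.3%. That share adds up all listed genes of both chromosomes, so it is not the share to be awaited for a pair of homoeologues. Other pairs were not measured against it, and the count shows no lean of FAD2 to the A5 copy.

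**Figure D3:**
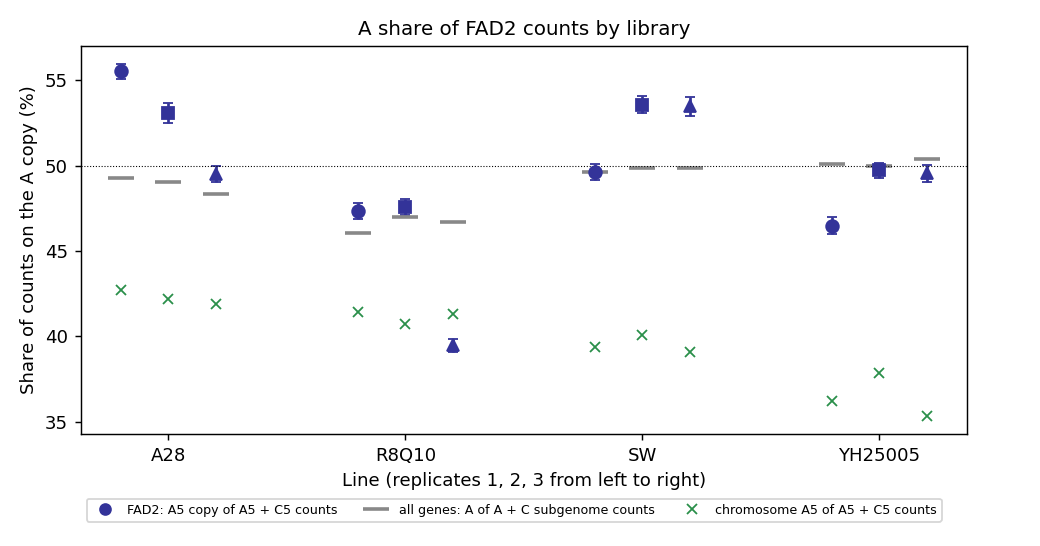
Share of the A5 copy in the FAD2 counts of each library (dark symbols, exact 95% binomial intervals, replicates 1 to 3 from left to right), beside the share of the A subgenome in all A and C counts (grey bars) and the share of chromosome A5 in the counts of chromosomes A5 and C5 (green crosses). R8Q10 replicate 3 lies lowest at 39.5%, and A28 replicate 1 highest at 55.5%.

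Within lines the deviations of both copies were correlated. After the line mean was taken off, log2 CPM of both copies correlated over the 12 libraries with Pearson's r = 0.93 and Spearman's rho = 0.93 (exact permutation within lines over 1296 arrangements, two-sided, p = 0.0054 for each, adjusted over 2 relations 0.0108). In 11 of 12 libraries both copies were on the same side of their line mean. The order of the 3 replicates was the same for both copies in 2 lines, A28 and R8Q10, and not in SW and YH25005. Without the libraries farthest from the median in the A5 copy, A28 replicates 2 and 3, r was 0.93 (exact permutation p = 0.0324). Over all lines together the C5 copy moved further, by 1.34 log2 units for each unit of the A5 copy. In YH25005 it moved less, with an SD of log2 CPM of 0.12 against 0.17 for the A5 copy. The slope was not fitted with single libraries left out. Both values of a library share its scaling factor, and with library totals in place of TMM r was 0.91. How common such correlations are among other pairs of genes was not measured. BnaA09g10400D, picked from many genes for its likeness, had a within-line r of 0.94 with the A5 copy and 0.95 with the C5 copy. The part of reads matching both copies in this correlation was not tested.

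**Figure D4:**
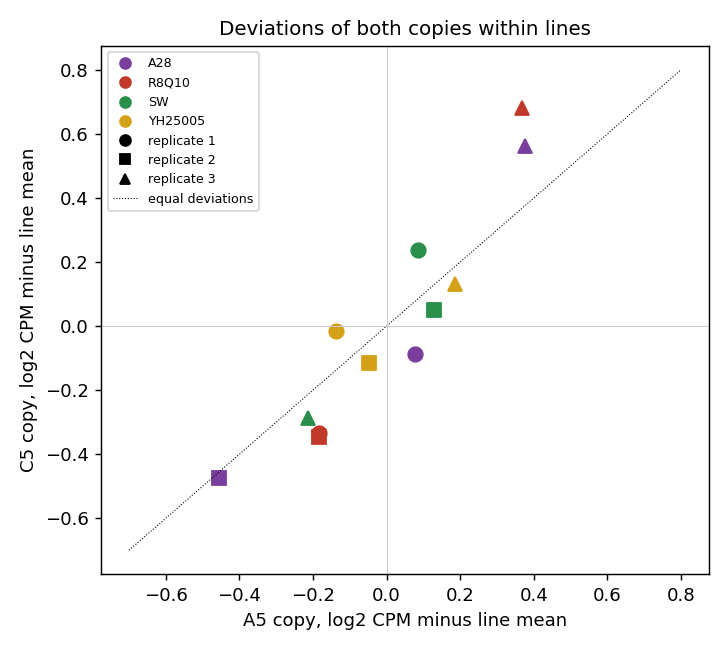
Deviation of log2 CPM from the line mean in the A5 copy (horizontal) and the C5 copy (vertical) for each of the 12 libraries, coloured by line and shaped by replicate, with a dotted line for equal deviations. The deviations were correlated (r = 0.93), and replicate 3 of R8Q10 and of A28 lie above the dotted line at the upper right.

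The spread between replicates was close to that of other genes except for the C5 copy in R8Q10. Among 20873 genes with a mean of at least 10 CPM, the SD of log2 CPM of the A5 copy ran from 0.17 in YH25005 and 0.19 in SW to 0.32 in R8Q10 and 0.42 in A28. The medians of these genes in the same order of lines were 0.21, 0.27, 0.27 and 0.41. The C5 copy had 0.12, 0.27, 0.59 and 0.52. Its SD in R8Q10 was above that of 84.9% of the genes, while the other 7 values of both copies lay above 24.2% to 62.4% of them. Between lines the measured means of the copies lay closer together than those of most of these genes. The highest line mean exceeded the lowest by 0.32 log2 units for the A5 copy and 0.53 for the C5 copy. Of the same genes, 7.4% and 21.7% had a smaller difference, and their median was 0.99.

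The genes beside each copy, in the order of their IDs, were measured to see whether the line differences of FAD2 extended along the chromosome. Of the 40 listed genes around BnaA05g26900D, from BnaA05g26570D to BnaA05g27280D, 4 to 8 were called in a pair of lines (10% to 20%, edgeR), with median log2 fold changes between -0.20 and 0.15. Around BnaC05g40970D, from BnaC05g40680D to BnaC05g41420D, 2 to 7 of 40 were called (5% to 17.5%), with medians between -0.08 and 0.24. Over all genes tested 15.4% to 27.2% were called and the medians lay between -0.01 and 0.06. The direct neighbours BnaA05g26890D, BnaA05g26910D, BnaC05g40960D and BnaC05g40980D were not called across the lines either (edgeR F test, adjusted p = 0.137, 0.156, 0.298 and 0.191). With limma on log2(FPKM + 1) BnaC05g40980D passed, at an adjusted p of 0.0491, and BnaC05g40960D had 0.055. Their mean levels were 10.6, 2.8, 11.7 and 39.5 CPM. In R8Q10 replicate 3, where the C5 copy lay 0.88 log2 units above its mean over all libraries, its 40 neighbours had a median of -0.15.

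Genes with the most similar pattern over the 12 libraries were sought among the 20872 other genes with a mean of at least 10 CPM. The genes nearest to the A5 copy were BnaA09g10400D (Pearson's r = 0.93 over 12 libraries, 10.3 to 18.8 CPM) and BnaC08g01280D (r = 0.91, 18.1 to 26.3 CPM). Nearest to the C5 copy were BnaCnng78530D (r = 0.95, 29.7 to 109 CPM) and again BnaA09g10400D (r = 0.94). These are descriptions of genes picked from many, the files give them no names, and all share the scaling of the libraries. The homoeologue, at r = 0.85, took place 30 in the list of the A5 copy and place 42 in that of the C5 copy.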

How the data were processed

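Poly-A RNA of immature seeds was sequenced as read pairs, per the labels' protocols, with a kit whose text does not mention strand. Whether the libraries kept the strand is thus not known, and if they did not, overlapping and antisense genes can share reads. Tools named, with no version, in the submitters' processing notes are DESeq2, HISAT2 and bcl2fastq. Genome build, annotation and counter: not given in the sources used here. Per the file headers each file holds a count and an FPKM value per gene. The counts deposited by the authors are whole numbers and were tested as such. To compare levels per length, the FPKM values that the authors deposited were used for both copies. Each file lists 47207 (A28, R8Q10) or 46839 (SW, YH25005) genes, and a gene missing from a list was filtered, not measured as 0.

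The 43708 genes of both lists entered a quasi-likelihood fit in edgeR 4.0.16 under R 4.3.3 (all 12 libraries, TMM, filterByExpr, which removed none, Benjamini-Hochberg, threshold 0.05, library size over all listed genes). SEs are the log2 fold change over the root of F. Shares and sums were tested by exact permutation in Python 3.11.15. DESeq2 1.42.0, limma 3.58.1 on log2(FPKM + 1) and log2(FPKM + 0.1), other scalings and filters, only the 2 lines compared and each library left out served as alternatives. The edgeR fit and the permutation tests were checked on simulated data. Genes most alike are the 2 with the highest r of log2 CPM (prior count 2) for each copy, and neighbours are 20 listed genes on each side by ID. The labels do not say what a replicate number marks. Deviations from the line mean correlated between all 3 same-numbered libraries of A28 and R8Q10 (r = 0.138 to 0.671 over genes) and not in all 3 for any other pair of lines, so the main fit has no block and the block is given beside the results it changes and for A28 against R8Q10. The genes are defined by ID, and they and the lists were taken up with earlier results of these data known.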

Additional observations from a re-analysis of the deposited data

How the results depend on the processing

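Neither copy was called in any of 274 combinations of comparison and alternative setting (edgeR, DESeq2 and limma), where the lowest adjusted p was 0.19 and 0 unadjusted p were under 0.05. These combinations are not separate checks. The setting without a filter repeated the main fit, since the filter removed no gene, and the other settings share most or all libraries with it. The A5 share across lines depended on single libraries, with exact permutation p from 0.0151 to 0.104 when 1 library was left out. With the A subgenome share taken off the exact permutation p was 0.124 (an alternative chosen after seeing the data, as were the subtraction of the chromosome share, with p = 0.0117, the block for shares and sums and the blocked fit of A28 and R8Q10 alone). The log2 ratio of A5 to C5, at 0.42 per length, was -0.025 by counts, the cause not being tested. No values without single libraries were run for the medians of neighbours. With 1 library left out no direct neighbour was called across lines, the lowest edgeR adjusted p being 0.0731 for BnaA05g26910D without SW replicate 3. With 40 neighbours on each side the median around the A5 copy was 0.064 for A28 minus YH25005 and -0.11 for SW minus YH25005, and around the C5 copy it was 0.15 for A28 minus R8Q10, 0.039 for A28 minus YH25005 and -0.12 for R8Q10 minus YH25005. With 10 on each side the latter medians were 0.42 for A28 minus R8Q10, -0.24 for R8Q10 minus SW, -0.0053 for R8Q10 minus YH25005 and 0.27 for SW minus YH25005, the cause of these shifts not being tested. The share of all genes called moved by over 1.5 times, for A28 minus R8Q10 from 21.7% to 14.2% and for A28 minus SW from 15.4% to 8.86% with only the 2 lines compared, and without YH25005 replicate 1 from 27.2% to 17.1% for A28 and from 23.4% to 14.2% for R8Q10, each minus YH25005.

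Libraries with the same replicate number tended to deviate together in A28 and R8Q10 (3 of 3 correlations over 0.1, 5 of the 6 between other numbers below 0). The exception, A28 replicate 1 with R8Q10 replicate 3, had r = 0.277, above the 0.138 between the replicates numbered 1. The count over 0.1 was 2 of 3 for SW with A28 and with R8Q10, 1 of 3 for YH25005 with A28 and 0 of 3 for YH25005 with R8Q10 and with SW, and 7 of 12 libraries were closest to their own number. With the replicate number as a block, edgeR's adjusted p across lines was 0.744 for the A5 copy and 0.431 for the C5 copy, and permuting within numbers (576 arrangements) gave an exact permutation p of 0.059 for the share, which ended its call, and 0.422 for the sum. The block changed no other call.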

Other observations

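Libraries with more FAD2 RNA than others of their line tended to have a smaller A5 share in A28, R8Q10 and SW, a relation looked at after the values had been seen. The share and the sum are made from the same 2 counts. Their relation is therefore not separate from the larger swing of the C5 copy within lines. Within lines, the share and log2 of the summed CPM had Pearson's r = -0.72 and Spearman's rho = -0.59 over 12 libraries (exact permutation within lines, two-sided, p = 0.0656 and 0.154, adjusted over 2 relations 0.0656 and 0.154). Without R8Q10 replicate 3 r was -0.46 (exact permutation p = 0.419), and without R8Q10 replicate 3 and A28 replicate 3, the libraries farthest from the median of the sum, r was 0.09 (exact permutation p = 0.917), so the relation rests on those libraries.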
